A study of Danio rerio with 37 samples.

Results

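The genes described here are krt4, krt8, krt5 and krt92, which encode keratins, cldne and cldnf, which encode claudins, and capn9, which encodes a calpain. They were chosen by symbol as genes of the enveloping layer, with earlier results of these data known. All 7 were found among the 32520 genes of the count tables (krt4 ENSDARG00000017624, krt8 ENSDARG00000058358, krt5 ENSDARG00000058371, krt92 ENSDARG00000036834, cldne ENSDARG00000043128, cldnf ENSDARG00000043133 and capn9 ENSDARG00000012341). All 7 also passed the filter on low counts, which left 16321 genes. In the RefSeq annotation of the GRCz12tu assembly, no protein-coding gene lies between krt5 and krt8 or between cldne and cldnf.

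The enveloping layer is the thin epithelium that covers the zebrafish blastula and gastrula and becomes the first skin of the embryo, the periderm. Keratins pair into intermediate filaments that give such an epithelium its mechanical strength, and claudins seal the space between its cells at tight junctions. Calpains are calcium-dependent proteases that cut a limited set of proteins, and capn9 is known in the zebrafish embryo as a marker of the enveloping layer.

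RNA of whole zebrafish embryos at 6 hours post fertilization was sequenced in 37 libraries that fall into 12 groups. The effector was RfxCas13d, DjCas13d or Cas7-11, which are CRISPR enzymes that cut RNA matched by a guide. Each was given with 10 pg or 50 pg of GFP and had a control arm and a knockdown arm. Doses in pg are amounts of GFP throughout, and the sample titles give no amount of effector. The sample titles name GFP alone, whereas the design text of the series speaks of a miR-430 knockdown, so what else the knockdown embryos received is not known here. Each group had 3 libraries, but the RfxCas13d knockdown at 10 pg had 2 and both arms of Cas7-11 at 10 pg had 4. The labels do not say what the control embryos received, how many embryos a library holds, or whether replicates were separate clutches of embryos. The p-values therefore cover the spread among the sequenced libraries only, which may be technical. In RNA of whole embryos, fewer enveloping layer cells and less RNA of a gene per cell cannot be told apart.

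Reads assigned to genes numbered, in units of 1e6, from 3.945 to 8.034 in libraries of RfxCas13d, from 5.946 to 7.338 in those of DjCas13d and from 17.4 to 24.0 in those of Cas7-11. GFP was lower in every knockdown library than in every control library in all 6 conditions. With RfxCas13d at 50 pg it was at 4226 to 21930 TPM in controls and at 121 to 446 TPM in knockdown libraries. TPM are transcripts per 1e6, a level corrected for gene length. In 5 libraries the nuclear RNA malat1 exceeded 5000 CPM (reads per 1e6 gene reads), against at most 2272 CPM in the other 32. These were RfxCas13d controls 1 and 3 at 10 pg, RfxCas13d control 1 at 50 pg and DjCas13d knockdowns 1 and 2 at 10 pg. Knockdown responses in the 3 groups that hold them are given with and without them; leaving them out leaves 1 library in the RfxCas13d control and in the DjCas13d knockdown at 10 pg, each assumed to vary like the other groups.

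In the 19 control libraries the keratins were among the most abundant RNAs of the embryo. Of 27094 genes above 0 TPM, krt4 ranked 44 by mean level, krt8 52, krt5 149, krt92 206, cldne 252, capn9 981 and cldnf 2953. The mean levels were 2452 TPM for krt4, 2378 TPM for krt8, 1193 TPM for krt5, 829 TPM for krt92, 656 TPM for cldne, 158 TPM for capn9 and 44.7 TPM for cldnf. The order of krt4 and krt8 changed between libraries, and the order below them was steadier. Krt5 was below both krt4 and krt8 in 37 of 37 libraries, krt92 was below krt5 in 36, cldne was below krt92 in 31, capn9 was below cldne in 37, and cldnf was the lowest in 37. Neighbours in this order whose libraries overlapped within a control group were krt4 and krt8 (4 of 6 control groups), krt5 and krt92 (3 of 6), krt92 and cldne (3 of 6) and krt8 and krt5 (1 of 6). Krt8 was above krt4 in 14 of 14 Cas7-11 libraries and in 9 of 23 Cas13d libraries.

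**Figure D1:**
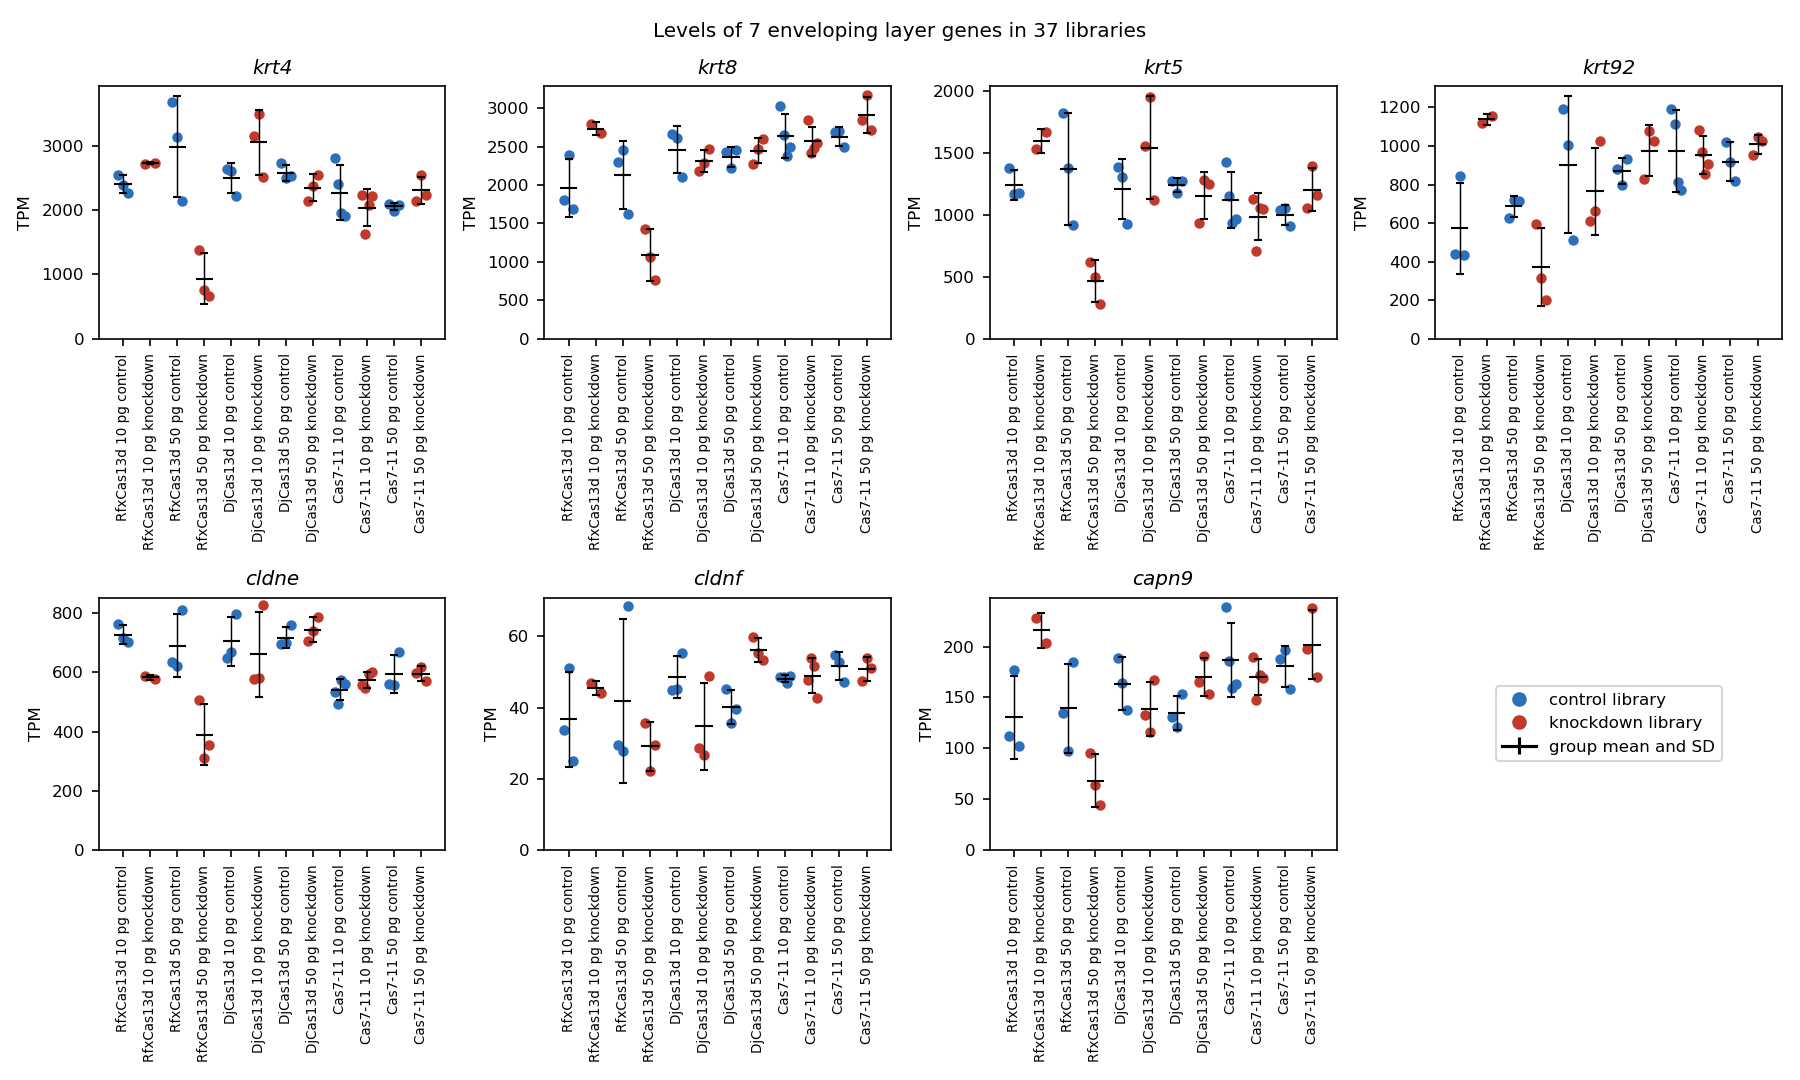
Level of each of the 7 genes in TPM (vertical axes, from 0) in every library of the 12 groups. Points are libraries, blue for control and red for knockdown, and bars give the group mean and SD. For krt4, krt8, krt5 and capn9 the 3 knockdown libraries of RfxCas13d at 50 pg lie below every other library.

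With RfxCas13d at 50 pg, all 7 genes fell in the knockdown arm. The log2 fold changes ran from -2.39 (krt5) to -1.16 (cldnf), with a median of -1.66 against 0.05 over all genes. This was 7 of 7 genes lower by edgeR's quasi-likelihood test with Benjamini-Hochberg adjustment, in a comparison in which 28.8% of the 16321 genes tested were called lower and 30.0% higher. Since the 7 were chosen with earlier results of these data known, their count against these shares does not test them as a set. Together the 7 genes took 0.884% to 1.47% of gene reads in the controls and 0.322% to 0.658% in the knockdown libraries.

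Among the keratins, krt4, whose promoter is widely used to drive transgenes in the enveloping layer, was at 3681, 3130 and 2142 TPM in controls 1, 2 and 3 and at 1385, 749 and 669 TPM in knockdowns 1, 2 and 3. The arms did not overlap, and the 3 knockdown values were the lowest of all 37 libraries. On the scaled counts that edgeR tested, krt4 fell by 2.32 on the log2 scale (SE 0.27, adjusted p = 2.8e-08), or 5.01-fold. Its mean TPM in knockdowns was 0.313 of that in controls.

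Krt8, a keratin of simple epithelia, was at 2303, 2454 and 1629 TPM in controls and at 1430, 1066 and 761 TPM in knockdowns. Here too the arms were apart, by less than for krt4: the lowest control lay just above the highest knockdown. Its log2 fold change was -1.66 (SE 0.21, adjusted p = 6.9e-08), or 3.17-fold lower on scaled counts. The mean TPM in knockdowns was 0.510 of that in controls.

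Krt5 was at 1822, 1377 and 919 TPM in controls and at 619, 495 and 281 TPM in knockdowns. In both arms library 1 was the highest and library 3 the lowest, as for krt4, and the arms did not overlap. Its log2 fold change, -2.39 (SE 0.31, adjusted p = 2.0e-07), was the largest of the 7 on scaled counts, or 5.23-fold lower. The mean TPM in knockdowns was 0.339 of that in controls.

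Krt92 was at 625, 722 and 713 TPM in controls and at 598, 317 and 202 TPM in knockdowns. Knockdown 1 nearly reached the lowest control, and knockdowns 2 and 3 were far below it. The log2 fold change was -1.50 (SE 0.29, adjusted p = 7.1e-05), or 2.83-fold lower on scaled counts. The mean TPM in knockdowns was 0.542 of that in controls.

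Of the claudins, cldne, whose transcripts mark the enveloping layer, was at 637, 622 and 812 TPM in controls and at 506, 311 and 355 TPM in knockdowns. The arms were apart, and the log2 fold change was -1.49 (SE 0.18, adjusted p = 3.4e-08), or 2.80-fold lower on scaled counts. The mean TPM in knockdowns was 0.565 of that in controls.

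Cldnf, the least abundant of the 7, was at 29.6, 27.7 and 68.4 TPM in controls and at 35.8, 22.1 and 29.6 TPM in knockdowns. These ranges overlapped, with control 3 alone far above the rest. After TMM scaling, which the test uses, cldnf was at 56.1, 47.0 and 82.4 CPM in controls and at 37.5, 19.8 and 25.7 CPM in knockdowns, with no overlap. The log2 fold change in edgeR was -1.16 (SE 0.20, adjusted p = 9.3e-06). With library size alone it was -0.61 (SE 0.21, adjusted p = 0.012), where 15.5% of genes were called lower. In limma on log2(TPM + 1) it was -0.41 (SE 0.25, adjusted p = 0.151), where 14.0% of genes were called lower. The fall of cldnf was thus called on counts, with or without TMM scaling, and not on TPM.

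The calpain gene capn9 was at 135, 97.8 and 185 TPM in controls and at 95.8, 64.4 and 44.3 TPM in knockdowns. The highest knockdown was only just below the lowest control, and all 3 knockdowns were below every library outside this group. Its log2 fold change was -1.66 (SE 0.21, adjusted p = 6.6e-08), or 3.16-fold lower on scaled counts. The mean TPM in knockdowns was 0.489 of that in controls.

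In TPM the arms were apart, with the knockdown lower, for 6 of the 7 genes, all but cldnf, whereas this held for 10.7% of all genes tested and 41.3% were apart with the knockdown higher. TMM factors, which enter the scaled counts and not the TPM values, were 0.822 to 0.967 in the controls and 1.16 to 1.42 in the knockdown libraries of this condition. With library size alone the median of all genes was at 0.64 instead of 0.05. The 7 genes were still called lower, at -1.81 (krt5) to -0.61 (cldnf), as were 15.5% of all genes. Without the libraries rich in malat1 the 7 were called lower as well, at -2.09 (krt4) to -1.24 (cldnf), as were 27.0% of all genes. Outside this knockdown group, no library of the other 34 was below its highest value for krt4, krt8, krt5 or capn9, whereas 1 was for cldne, 3 were for krt92 and 7 for cldnf.

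**Figure D2:**
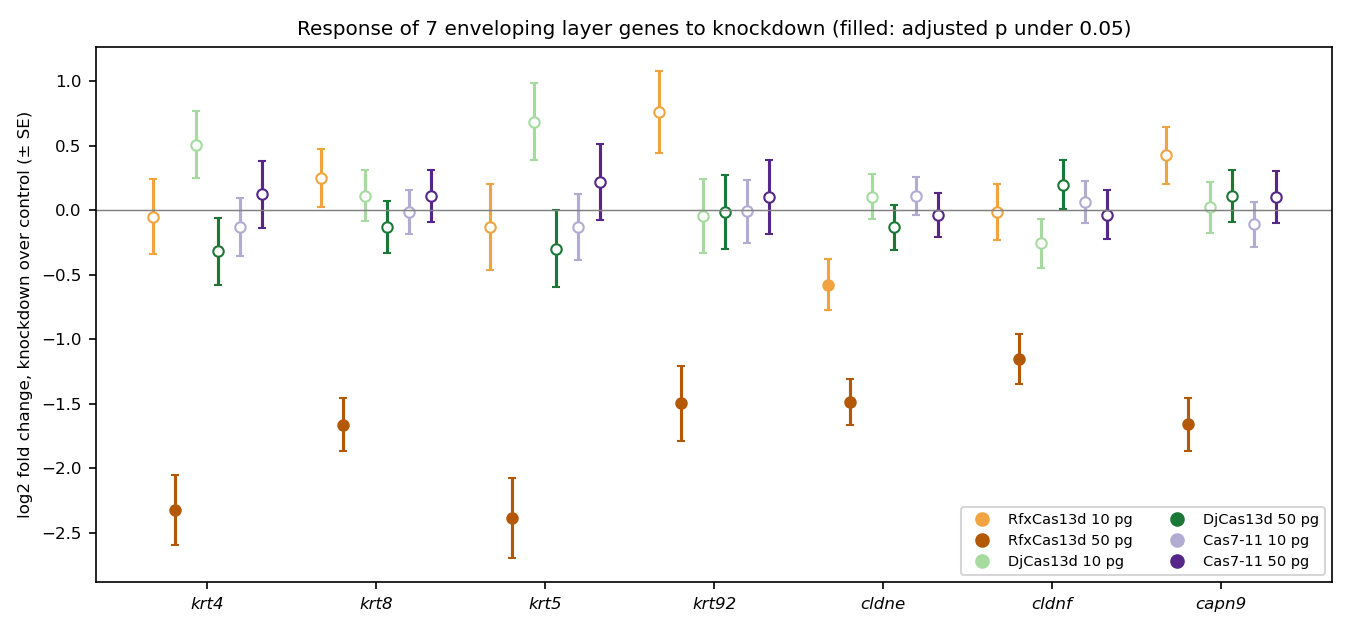
Log2 fold change of knockdown over control (vertical axis, bars are ± SE, edgeR) for each gene, with a point for each effector and dose; filled points had an adjusted p under 0.05. The points of RfxCas13d at 50 pg lie between -2.39 and -1.16, and the only other filled point is cldne with RfxCas13d at 10 pg, at -0.58.

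With RfxCas13d at 10 pg, where edgeR called 14.0% of genes (6.98% lower), 1 of the 7 genes passed the test. Cldne fell, from 763, 716 and 704 TPM in controls 1 to 3 to 590 and 578 TPM in the 2 knockdown libraries. The arms did not overlap, and the log2 fold change was -0.58 (SE 0.20, adjusted p = 0.047). The call held in 1 of 5 fits that each left out 1 library, the one without control 2, and was lost in the other 4 (adjusted p = 0.13 to 0.23, log2 fold change -0.59 to -0.47). It was also lost with library size alone, with no filter, with only the groups compared and with the replicate block (adjusted p = 0.058 to 0.11). The fit of only the groups compared called 0% of all genes, and the replicate block called 1.13% lower. The block pairs libraries by number and leaves control 3 without a partner. Deviations from group means of same-numbered libraries did not correlate in this condition (r = -0.006 and -2.0e-05). Limma on log2(TPM + 1) did not call cldne either (-0.32, adjusted p = 0.15). The call was kept with median-of-ratios scaling (-0.59, adjusted p = 0.035) and in DESeq2 (-0.58, adjusted p = 0.018). Without the malat1-rich libraries, which leaves 1 control, cldne was at -0.32 (SE 0.27), and calls in that fit are not given.

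Krt92 was at 440, 845 and 432 TPM in these controls and at 1120 and 1158 TPM in the knockdowns. Both low controls, 1 and 3, are rich in malat1. The log2 fold change of krt92 was 0.76 (SE 0.32, adjusted p = 0.099) in edgeR. It was 1.06 (SE 0.33, adjusted p = 0.021) in limma on log2(TPM + 1), which called 18% of genes higher. In edgeR without the malat1-rich libraries krt92 was at 0.39 (SE 0.46). Capn9 had the same pattern, with 112, 177 and 102 TPM in controls and 228 and 204 TPM in knockdowns. Its log2 fold change was 0.42 (SE 0.22, adjusted p = 0.19) in edgeR, 0.76 (adjusted p = 0.036) in limma, and 0.23 (SE 0.32) in edgeR without those libraries.

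The other keratins were also apart in TPM, with the knockdown higher. Krt4 was at 2540, 2394 and 2267 TPM in controls against 2720 and 2734 TPM, krt8 at 1810, 2388 and 1685 TPM against 2796 and 2670 TPM, and krt5 at 1379, 1166 and 1177 TPM against 1528 and 1666 TPM. This makes 5 of 7 genes apart with the knockdown higher (31.6% of all genes) and 1, cldne, with the knockdown lower (12.6%). Their edgeR log2 fold changes, -0.05 (SE 0.29) for krt4, 0.25 (SE 0.22) for krt8 and -0.13 (SE 0.33) for krt5, did not pass, and without the malat1-rich libraries they were 0.16 (SE 0.38), 0.17 (SE 0.32) and 0.30 (SE 0.39). Cldnf was at 33.8, 51.1 and 25.1 TPM against 46.8 and 44.0 TPM, with overlap, and had a log2 fold change of -0.02 (SE 0.22), or -0.24 (SE 0.27) without those libraries. The share of gene reads from mitochondrial mRNAs ranged from 2.25% to 9.65% among the controls and from 1.68% to 1.74% among the knockdowns, and its part in these values was not tested.

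With DjCas13d at 10 pg, edgeR called 0 of the 7 genes and 0% of all genes, DESeq2 and limma also called none of the 7, and 1 of the 7, krt5, had an unadjusted p under 0.05. Krt5 was at 1385, 1307 and 930 TPM in controls and at 1554, 1950 and 1122 TPM in knockdowns. The arms overlapped, and its log2 fold change was 0.68 (SE 0.30, 95% interval 0.07 to 1.30, adjusted p = 0.28). Without knockdown 3, which leaves both malat1-rich libraries as the knockdown arm, krt5 was at 0.95 (SE 0.30, adjusted p = 0.034). Without these 2 libraries, which leaves knockdown 3 alone, krt5 was at -0.02 (SE 0.36). Krt4 had a log2 fold change of 0.51 (SE 0.26, adjusted p = 0.34), at 2644, 2612 and 2220 TPM against 3149, 3487 and 2507 TPM, and of 0.02 (SE 0.35) without the malat1-rich libraries. For krt8, krt92, cldne, cldnf and capn9 the log2 fold changes were -0.26 to 0.11, and at most 0.22 in size without those libraries. In krt92 and cldnf the knockdown libraries 1 and 2 stood below knockdown 3, at 609 and 660 against 1025 TPM for krt92 and at 28.7 and 26.8 against 48.8 TPM for cldnf.

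With DjCas13d at 50 pg, edgeR, DESeq2 and limma called 0 of the 7 genes, where edgeR called 0.00613% of all genes, and none of the 7 had an unadjusted p under 0.05. The log2 fold changes ran from -0.32 (krt4) to 0.20 (cldnf), and the 95% intervals of the 7 lay within -0.91 and 0.59. In TPM, cldnf and capn9 were apart with the knockdown higher, as were 23.0% of all genes. Cldnf was at 45.2, 35.5 and 39.6 TPM in controls and at 59.8, 55.2 and 53.4 TPM in knockdowns. Capn9 was at 131, 121 and 153 TPM in controls and at 165, 191 and 154 TPM in knockdowns, with the lowest knockdown next to the highest control.

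With Cas7-11, whose libraries were the deepest, edgeR, DESeq2 and limma called 0 of the 7 genes at either dose, and none had an unadjusted p under 0.05. EdgeR called 0.0735% of all genes at 10 pg and 0.0613% at 50 pg. At 10 pg the log2 fold changes of the 7 were -0.13 to 0.11, with 95% intervals within -0.66 and 0.50, in the fit without the replicate block. Cldne was at 533, 495, 575 and 562 TPM in controls and at 557, 547, 595 and 603 TPM in knockdowns, with overlap. With the replicate block, which pairs libraries by number although the labels do not state a pairing, its log2 fold change was 0.11 (SE 0.13, adjusted p = 0.99995). Krt4 was at 2809, 2410, 1946 and 1900 TPM in controls and at 2232, 1625, 2081 and 2211 TPM in knockdowns, and krt8 at 3026, 2650, 2372 and 2495 TPM against 2842, 2414, 2486 and 2543 TPM. The arms of both genes overlapped widely. At 50 pg the log2 fold changes were -0.04 to 0.22, with 95% intervals within -0.49 and 0.83. Krt4, at 1987 to 2098 TPM in controls and 2132 to 2545 TPM in knockdowns, and krt8, at 2492 to 2708 against 2719 to 3167 TPM, were apart with the knockdown higher, as were 7.98% of all genes.

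The responses themselves were compared between doses and effectors. With RfxCas13d the response at 50 pg was lower than that at 10 pg for 7 of 7 genes (20.9% of all genes), by edgeR's test of the difference. The difference in log2 fold change was -2.27 (SE 0.39) for krt4, -2.26 (SE 0.43) for krt92, -2.25 (SE 0.44) for krt5, -2.08 (SE 0.30) for capn9, -1.91 (SE 0.30) for krt8, -1.14 (SE 0.29) for cldnf and -0.91 (SE 0.26) for cldne. Adjusted p-values ran from 4.5e-06 (capn9) to 0.0059 (cldne). The calls of cldne and cldnf were lost with library size alone (adjusted p = 0.073 and 0.067), in limma on log2(TPM + 1) (0.052 and 0.0995) and when only the 4 groups compared were fitted (0.12 and 0.074). Without the malat1-rich libraries, which leaves 1 control at 10 pg, the 7 differences were -2.34 (krt5) to -0.997 (cldnf), and calls in that fit are not given.

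At 50 pg the RfxCas13d response was lower than the DjCas13d response for 7 of 7 genes (17.5% of all genes), with differences of -2.09 (krt5) to -1.35 (cldne and cldnf). It was lower than the Cas7-11 response for 7 of 7 genes as well (22.6% of all genes), with differences of -2.60 (krt5) to -1.12 (cldnf). Adjusted p-values were at most 0.0058 against DjCas13d and at most 0.0021 against Cas7-11. The call of cldnf against DjCas13d was lost in limma on log2(TPM + 1) with no filter (-0.89, adjusted p = 0.070). The call of cldnf against Cas7-11 was lost with library size alone (-0.60, adjusted p = 0.088) and in limma on log2(TPM + 1) (-0.39, adjusted p = 0.37). These comparisons share the RfxCas13d libraries.

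No other difference of responses passed for any of the 7 genes in edgeR. Between DjCas13d and Cas7-11 at 50 pg, where 0.00613% of all genes were called, the 7 differences were -0.52 to 0.23 and none had an unadjusted p under 0.05. At 10 pg the difference of cldne was -0.68 (SE 0.26, adjusted p = 0.073) between RfxCas13d and DjCas13d (14.8% of all genes called). It was -0.69 (SE 0.25, adjusted p = 0.079) between RfxCas13d and Cas7-11 (6.36%). DESeq2 called both (adjusted p = 0.036 and 0.033), in fits whose share of all genes called is not given here. Without the malat1-rich libraries these differences of cldne were -0.54 (SE 0.37) and -0.44 (SE 0.31). In each of these comparisons 1 of the 7 genes, cldne, had an unadjusted p under 0.05. Between DjCas13d and Cas7-11 at 10 pg (0% of all genes called), 1 gene, krt5, did, at 0.82 (SE 0.39, adjusted p = 0.52), or at 0.10 (SE 0.42) without the malat1-rich libraries. Between the GFP doses, edgeR called 0% of all genes with DjCas13d and with Cas7-11. Of the 7, 2 (krt4 and krt5) with DjCas13d and 0 with Cas7-11 had an unadjusted p under 0.05. Without the malat1-rich libraries the differences between the GFP doses with DjCas13d were -0.34 (SE 0.43) for krt4 and -0.28 (SE 0.44) for krt5.

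Between the 50 pg and 10 pg controls of each effector none of the 7 genes passed the test in edgeR, DESeq2 or limma, and none had an unadjusted p under 0.05. EdgeR called 1.70% of all genes between the RfxCas13d controls, where the log2 differences of the 7 (50 pg over 10 pg) were 0.09 to 0.50, and -0.03 to 0.47 without the malat1-rich libraries. It called 0% between the DjCas13d controls, where the 7 were at -0.16 to 0.21, and 0% between the Cas7-11 controls, where they were at -0.11 to 0.17.

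Related genes are given from lists of known members of each structure, chosen with earlier results of these data known, with the same edgeR test. For RfxCas13d at 50 pg, their counts stand against shares over all genes of 30.0% higher and 28.8% lower in edgeR. The shares were 45.2% higher and 15.5% lower with library size alone. They were 47.3% higher and 14.0% lower in limma on log2(TPM + 1), whose median over all genes was 0.60. In the RfxCas13d knockdown at 50 pg, 9 of 12 other keratins tested fell and none rose, with a median log2 fold change of -1.74 against 0.05 over all genes. Krt18a.1, the type I partner of krt8 filaments, went from 1938 ± 307 to 1256 ± 391 TPM (mean ± SD, n = 3 in each arm; log2 fold change -1.32, SE 0.19). Krt97 went from 944 ± 110 to 423 ± 184 TPM (-2.0, SE 0.26), krt17 from 240 ± 51.4 to 90.5 ± 56.4 TPM (-2.07, SE 0.34) and cyt1 from 511 ± 48.2 to 290 ± 192 TPM (-1.83, SE 0.35). On the other scales 8 of 12 were lower and 0 higher by library size alone, and 7 of 10 were lower and 0 higher in limma. Keratin genes resemble each other in sequence, and reads that map to several places (3.80% to 6.29% of reads) stand outside the gene counts, so the split between closely related copies is uncertain.

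The tight junction genes did not move as one. Of 21 tested, 7 rose, a share near that of all genes, and 3 fell, with a median of 0.08. The claudin genes cldnd and cldng were far higher in the knockdown, at 57.1 ± 29.5 against 1824 ± 547 TPM (4.32, SE 0.49) and at 37 ± 2.35 against 1078 ± 666 TPM (4.21, SE 0.51). Cldn7b rose too, from 115 ± 30.9 to 506 ± 125 TPM (1.46, SE 0.21), whereas cldnb fell from 216 ± 10.6 to 99.1 ± 41.6 TPM (-1.84, SE 0.23). The summed level of the list was 993 to 1631 TPM in controls and 3813 to 6300 TPM in knockdowns, opposite in direction to cldne and cldnf. With library size alone the split was 11 higher and 2 lower.

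Of 15 adherens junction and desmosome genes, 2 rose and 9 fell, with a median of -0.62. Ctnnb1, which encodes beta-catenin, was at -1.37 (SE 0.18), and the genes of the desmosomal and cornified envelope linkers pkp3a, ppl and evpla were at -1.57 (SE 0.21), -1.39 (SE 0.21) and -1.60 (SE 0.21). With library size alone the split was 4 higher and 5 lower. The summed level of this junction list was 2234 to 3888 TPM in controls and 3208 to 3775 TPM in knockdowns. Of 14 genes of the calpain system, 2 rose and 3 fell, with a median of -0.09: capn2l was at -2.70 (SE 0.40), capn7 at 1.43 (SE 0.21) and cast, which encodes the calpain inhibitor calpastatin, at 0.41 (SE 0.15). The summed level of this list was 335 to 401 TPM in controls and 534 to 583 TPM in knockdowns, and with library size alone the split was 5 higher and 1 lower.

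Among 15 transcription factors and kinases known to act in the enveloping layer or surface ectoderm, 2 rose and 8 fell, with a median of -0.64. The summed level of these regulators was 547 to 673 TPM in controls and 585 to 733 TPM in knockdowns. The AP-2 factors tfap2c and tfap2a were at -3.12 (SE 0.25) and -2.15 (SE 0.27), gata2a at -2.60 (SE 0.22) and klf2b at -2.03 (SE 0.21). Of 16 other enveloping layer markers, 1 rose and 10 fell, with a median of -0.97; anxa1b was at -2.04 (SE 0.26), lye at -1.83 (SE 0.23), pfn1 at -1.60 (SE 0.29) and agr1 at -2.47 (SE 0.56). The summed level of the markers was 2466 to 2972 TPM in controls and 1460 to 2578 TPM in knockdowns. With library size alone the regulators split into 3 higher and 5 lower and the markers into 3 higher and 4 lower. In limma they split into 4 and 4 and into 2 and 6.

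**Figure D3:**
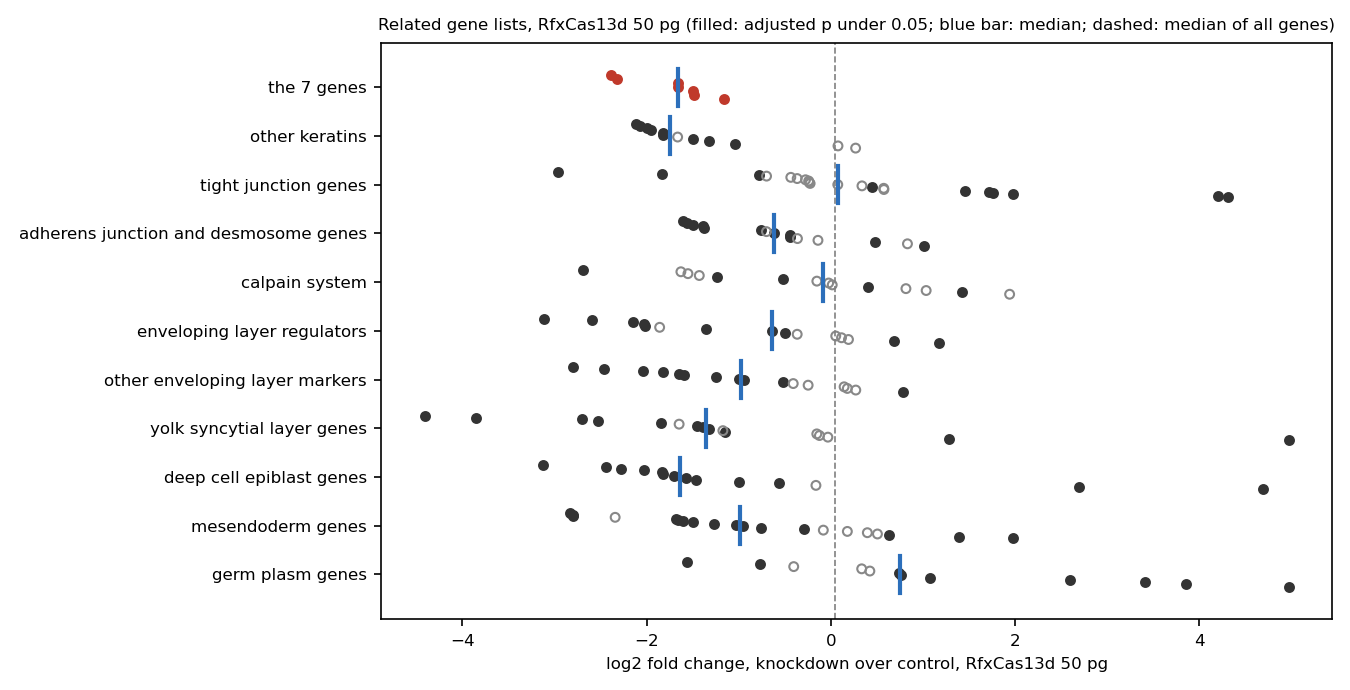
Log2 fold change of knockdown over control with RfxCas13d at 50 pg (horizontal axis) for the 7 genes (red) and for each gene of 10 lists (black filled: adjusted p under 0.05 in edgeR; open: not). Blue bars are the medians, -1.66 for the 7 genes and -1.74 for the other keratins, and the dashed line is the median of all genes, 0.05.

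Markers of other parts of the embryo moved in the same comparison. Of 16 yolk syncytial layer genes 9 fell and 2 rose (median -1.36), and their summed level was 6867 to 9471 TPM in controls and 3650 to 7309 TPM in knockdowns. Within that list apoc1, an apolipoprotein gene, was at -2.71 (SE 0.34), whereas mxtx2, a transcription factor of that layer, was at 4.98 (SE 0.77). Of 14 deep cell epiblast genes 11 fell and 2 rose (median -1.64; 1970 to 3030 TPM in controls and 2670 to 2890 TPM in knockdowns), and of 20 mesendoderm genes 12 fell and 3 rose (median -0.99; 2136 to 2516 against 1528 to 2318 TPM). Of 12 germ plasm genes 7 rose and 2 fell (median 0.75), with sums of 326 to 615 TPM in controls and 1090 to 2519 TPM in knockdowns; the germ plasm organizer buc was at 4.97 (SE 0.46). In these groups, rbp4 and ttr of the yolk syncytial list were listed at 0 in both arms, and no gene of the epiblast, mesendoderm or germ plasm lists was at 0 in all libraries of an arm. With library size alone the splits (higher and lower) were 3 and 7, 3 and 9, 7 and 7, and 9 and 1, in the order of the lists above. The part of these changes in the values of the 7 genes was not tested.

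With RfxCas13d at 10 pg, 0 of the 12 other keratins passed in edgeR, and limma on log2(TPM + 1) called 4 of 10 higher. In the tight junction list cldn12 and tjp2a rose and marveld3 fell, in the adherens junction and desmosome list dsg2.1, ctnna1 and ctnnb1 rose, and no gene of the calpain system passed. Klf4 rose and tfap2c fell among the regulators, and gsnb rose and hbegfa fell among the other markers. The shares called, 2 of 15 regulators and 2 of 16 markers, were near the 14.0% of all genes. With only the groups compared, edgeR called 0 of 13403 genes in this comparison, so none of the edgeR calls above held in that fit. Leaving out the malat1-rich libraries leaves 1 control library in this comparison, so calls of the listed genes without them are not given. In the DjCas13d and Cas7-11 comparisons edgeR called no gene of the 10 lists.

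Ratios between the genes within a library are free of library scaling, but in TPM they still depend on the length assigned to each gene. Among RfxCas13d libraries the number of TPM per CPM ran from 0.571 to 0.900 for krt5 and from 0.594 to 0.704 for krt4. In the 5 malat1-rich libraries the ratio of krt8 to krt4 (TPM) was 0.626 to 0.743, below its range of 0.760 to 1.49 in the other 32. The ratio of krt92 to krt4 was 0.170 to 0.193 against 0.230 to 0.596, also with no overlap. The ratio of krt5 to krt4 was 0.493 to 0.559 against 0.419 to 0.660 in all other libraries, with overlap, and the ratio of cldne to cldnf was 20.1 to 28.0 against 10.2 to 22.5. The malat1-rich libraries come from 3 groups, 2 control and 1 knockdown, and the 4 other libraries of these groups had krt92 to krt4 ratios of 0.231 to 0.409, krt8 to krt4 ratios of 0.760 to 0.998 and krt5 to krt4 ratios of 0.429 to 0.487, none of which reached the malat1-rich libraries. Their cldne to cldnf ratios, 11.9 to 22.5, overlapped. Ratios of other gene pairs were not compared between these libraries, so the separation is not shown to be particular to the keratins.

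**Figure D4:**
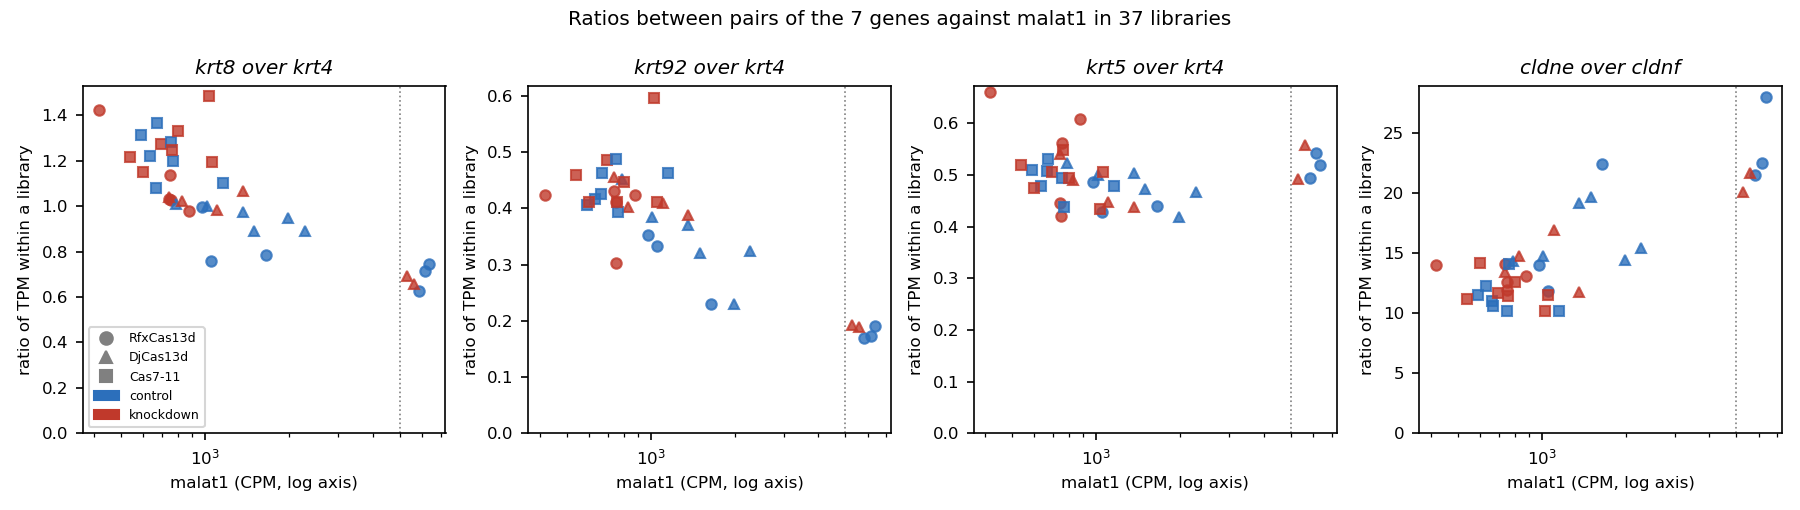
Ratio of TPM between 2 genes within a library (vertical axes, from 0) against malat1 in CPM (horizontal log axis) in 37 libraries, with the shape for the effector, blue for control and red for knockdown. Libraries right of the dotted line at 5000 CPM have krt8 to krt4 ratios of 0.626 to 0.743 and krt92 to krt4 ratios of 0.170 to 0.193.

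Likeness between the genes across libraries was described by Pearson's r of log2 CPM (TMM scaled), with no test, since libraries share groups, depth and malat1 content. Over all 37 libraries krt4 and krt5 were the most alike of the 21 pairs, at 0.99, and they stayed so over the 34 libraries outside the RfxCas13d knockdown at 50 pg, at 0.98. Other pairs were less alike without those 3 libraries. Krt8 and capn9 went from 0.93 to 0.35, krt4 and krt8 from 0.88 to 0.49, krt92 and capn9 from 0.92 to 0.56, and cldne and cldnf from 0.67 to -0.01. Some turned negative without them, such as krt4 and cldnf (0.58 to -0.44) and krt92 and cldne (0.57 to -0.46). As deviations from group means over all 37 libraries, r was 0.63 for krt8 and capn9 and 0.88 for krt4 and krt8. On this measure krt92 and capn9 were at 0.77, and cldne and cldnf at 0.48. Krt4 and cldnf were at -0.05 by the deviations, and krt92 and cldne at 0.28.

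**Figure D5:**
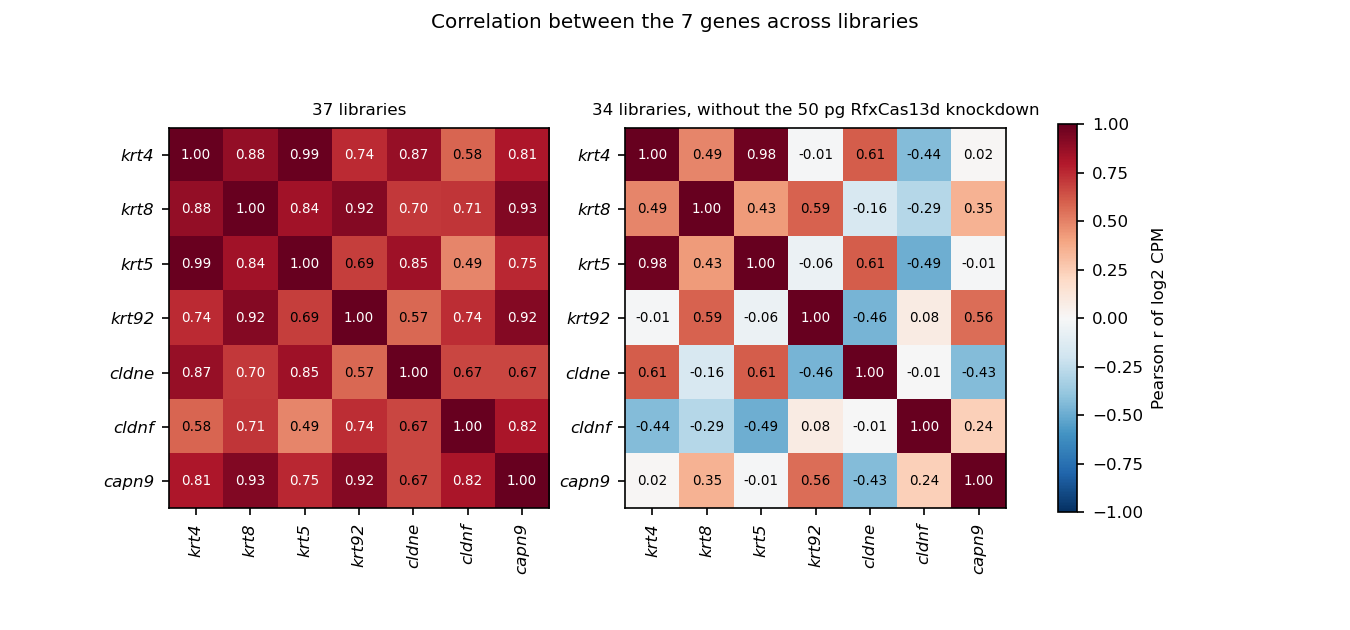
Pearson's r of log2 CPM between each pair of the 7 genes over 37 libraries (left) and over the 34 libraries outside the RfxCas13d knockdown at 50 pg (right), with the colour scale from -1 to 1. The pair of krt4 and krt5 keeps its value, 0.99 and 0.98, while krt4 and cldnf go from 0.58 to -0.44.

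Among 9116 other genes with a name and enough reads, those most like krt4 were pkdccb, nr2f6a and ckap4, each at 0.97 over 37 libraries and at 0.90 to 0.91 over 34. The same pkdccb and nr2f6a, with carhsp1, were the most like krt5, at 0.95 to 0.96 and 0.87 to 0.91. Krt8 was most like the keratin gene krt97 (0.98 and 0.83), followed by tbl1xr1a and ncoa5. Krt92 was most like ctps1a (0.95 and 0.79), followed by eif3d and the keratin gene cyt1l. For cldne the nearest were marcksl1a (0.97 and 0.94), the claudin gene cldn8.2 and sox19a, for cldnf mal2 (0.90 and 0.66), perp and rnf11a, and for capn9 rrp12 (0.96 and 0.56), nup133 and sf3b3.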

How the data were processed

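For each of the 37 libraries the authors deposited raw counts, which are whole reads per gene without normalization, and TPM values. The labels' protocols name TRIzol for RNA and a directional library kit, and the submitters' processing notes name danRer11 as genome build. Which aligner and counter made the counts, and with what strand setting, is not given in the sources used here, so overlapping and antisense genes cannot be told apart. Summary entries that name no gene (17.3% to 26.4% of reads) stayed out of library sizes and tests. Symbols were read from the TPM files (20859 genes) or a name table (8382 genes).

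Groups follow the sample titles. edgeR 4.0.16 (R 4.3.3) tested the counts after filterByExpr and TMM scaling, in 1 robust quasi-likelihood fit of the 12 groups with 18 contrasts, and p-values were adjusted by Benjamini-Hochberg over 16321 genes with a threshold of 0.05. Adjusted p-values are from this test unless DESeq2 1.42.0 or limma 3.58.1 is named. Limma used log2(TPM + 1), which understates changes of low genes, for genes with a mean TPM of at least 1. The SE is the size of the log2 fold change divided by the root of F, and 95% intervals use 25 residual degrees of freedom. The fit was tested on simulated counts. Within groups, no pair of libraries differed by as little as sampling noise (chi-square over degrees of freedom at least 3.44 in 40 pairs). Alternatives were other scalings, no filter, DESeq2, limma, fits of only the groups compared, each library left out, the malat1-rich libraries left out and a replicate block.

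Deviations from group means of same-numbered control and knockdown libraries correlated above 0.1 in all 4 pairs of Cas7-11 at 10 pg (0.28 to 0.51). Unlike numbers were as alike (control 2 with knockdown 1 at 0.41, control 3 with knockdown 4 at 0.45), and libraries 1 and 2 stood against 3 and 4. The check therefore does not establish a pairing by number. The main fit pairs no libraries and has no term for this split, and only the replicate block, an alternative, pairs by number. In the other conditions at least 1 pair was below 0.1.

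The 7 genes and the lists were chosen with earlier results of these data known. Beyond the 7, the text names up to 4 genes of each list with the smallest adjusted p in a comparison and, for each of the 7, the 3 genes most like it across libraries. A further result on 1 listed gene is not reported here.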

Additional observations from a re-analysis of the deposited data

Results flagged for a closer look

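With RfxCas13d the responses of all 7 genes differed between the GFP doses, by edgeR's test of the difference itself. At 50 pg they also differed, by the same test, between RfxCas13d and each of the other effectors. Between 50 pg and 10 pg of GFP with RfxCas13d the differences in log2 fold change were -2.27 (krt4), -1.91 (krt8), -2.25 (krt5), -2.26 (krt92), -0.91 (cldne), -1.14 (cldnf) and -2.08 (capn9). Between RfxCas13d and DjCas13d they were -2.0 (krt4), -1.53 (krt8), -2.09 (krt5), -1.48 (krt92), -1.35 (cldne), -1.35 (cldnf) and -1.77 (capn9). Between RfxCas13d and Cas7-11 they were -2.45 (krt4), -1.77 (krt8), -2.60 (krt5), -1.60 (krt92), -1.45 (cldne), -1.12 (cldnf) and -1.76 (capn9). The 3 comparisons share the RfxCas13d libraries at 50 pg. For the 7 genes in each Cas7-11 arm at 10 pg (14 sets of 4 libraries), no single library stood far from the others by Dixon's test, which cannot show a split into pairs such as that of krt4 in the controls (2809 and 2410 TPM against 1946 and 1900 TPM).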

How the results depend on the processing

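Of 1498 log2 fold changes of the 7 genes under an alternative, none changed sign as a called value, 30 lost the call, 14 gained it and 112, which passed in neither fit, shifted by 1 SE or more. With RfxCas13d at 50 pg the count of 7 lower held without each library in turn. It also held under all alternatives but the limma settings, which called 6. In the alternatives that called 7, the share of all genes called lower was 15.5% (library size alone) to 28.2% (replicate block). It was 8.05% to 14.7% in the limma settings, and it is not given for the fits that left out 1 library. With RfxCas13d at 10 pg the count of 1 (cldne) held with median-of-ratios scaling (7.19% of all genes lower) and in DESeq2 (9.19%). Without the malat1-rich libraries, which leaves 1 control, cldne was at -0.32. The count became 0 with library size alone (4.64% of all genes lower), with no filter (2.67%) and with only the groups compared (0%). With the replicate block (1.13% lower), in which cldne was at -0.54 (adjusted p = 0.11), the count was 0 as well. It became 2, both higher (krt92 and capn9), in limma with a pseudocount of 1 or 0.1, and 0 to 2 without each library in turn; the 2 without control 2 were cldne, lower, and krt92, higher. With DjCas13d at 10 pg the count of 0 became 1 without knockdown 3 (0 to 1 over the libraries left out). Between RfxCas13d and DjCas13d at 10 pg, 0 became 1 in DESeq2 (cldne, lower) and 2 in limma with either pseudocount (krt92 and capn9, higher). Between RfxCas13d and Cas7-11 at 10 pg, 0 became 1, cldne, lower, in DESeq2 and with only the groups compared. Shares of all genes called in these alternative fits of the 10 pg differences are not given, so the calls cannot be set against them. The cause of these changes of call was not tested. The replicate block changed no other call. Where leaving out a library leaves 1 in an arm, that library is assumed to vary like the other groups. The lowest counts of the 7 genes in a library were 109 reads for cldnf and 428 for capn9, and 985 or more for the others.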

Other observations

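The number of TPM per CPM, which depends on the length assigned to a gene and on the library, varied more for krt5 than for the other 6 genes among the RfxCas13d libraries, from 0.571 to 0.900. It was 0.634 to 0.900 in the knockdown and 0.571 to 0.664 in the control at 50 pg. The fall of krt5 there was called on both scales, at -2.39 in edgeR on counts and at -1.58 (SE 0.25) in limma on log2(TPM + 1).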
